A study of Mus musculus with 9 samples.

Results

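Hedgehog signalling was followed through 9 genes of the core pathway in embryonic mouse pancreas: the ligands Shh, Ihh and Dhh, the receptor Ptch1, the transducer Smo, the transcription factors Gli1, Gli2 and Gli3, and the ligand-binding inhibitor Hhip. They were chosen by gene symbol from the 23231 symbols that had a value in every library. All 9 were listed in all 9 libraries. The genotype test covered the 7 that reached 1 FPKM in at least 3 libraries, out of 13306 such genes, and left out Shh and Ihh. FPKM divides a gene's fragments by its transcript length and by the library's mapped total, so levels of different genes can be set side by side within a library.

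The study sequenced total RNA of whole pancreas dissected from e15.5 embryos on a mixed C57BL/6 and 129Sv background. There were 3 libraries of Blinc1-/- pancreas (knockout), 3 of Blinc1+/- pancreas (heterozygote) and 3 of wild-type pancreas. The Blinc1 gene encodes a long noncoding RNA next to Nkx2-2, a regulator of islet cells, and the mutant groups carried no other allele or treatment that the labels name. Whether each library is a separate embryo is not stated in the labels. The heterozygote and the wild-type libraries each included both sexes, so neither group came from a single embryo. For the knockouts, all female, this stays unknown. The p-values thus cover the spread between these samples alone, part of which may be technical.

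Hedgehog ligands are secreted proteins that bind Ptch1 on the receiving cell. Unbound Ptch1 keeps Smo inactive; once ligand binds, Smo acts at the primary cilium and the Gli factors switch from repressing to activating their targets, among which are Gli1, Ptch1 and Hhip themselves. Transcripts of these targets are therefore read as a sign of response, while Gli2 and Gli3 carry the signal in most tissues without being its best known targets. In the early mouse embryo Shh is expressed along the gut endoderm but is kept out of the pancreatic buds, and forced Hedgehog activity there disturbs pancreas development.

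The depth implied by the deposited confidence bounds was 19532984 to 25437255 fragments per library, and libraries correlated with each other at Spearman values of 0.983 to 0.988 over all genes. Acinar, ductal, endocrine and mesenchymal markers of the labelled tissue were all present. The Blinc1 transcript was not analysed here, so the genotype labels could not be checked by it. Nkx2-2 was at 24.9, 6.08 and 5.48 FPKM in the knockouts (replicates 1, 2 and 3), at 6.37, 19.0 and 13.4 FPKM in the heterozygotes, and at 15.2, 21.7 and 25.5 FPKM in wild type. Knockout replicate 1 thus lay within the wild-type range and heterozygote replicate 1 beside the other knockouts. Whether these 2 labels were exchanged was not tested; groups are used as labelled, and results that rest on these libraries are also given without them. Wild-type replicate 2 stood apart by its liver markers. Its 3 liver markers summed to 84.5 FPKM, against 26.7 to 36.9 FPKM in knockouts, 19.2 to 34.1 FPKM in heterozygotes and 27.9 FPKM in each of the other wild types. In that library Alb, serum albumin, was at 36.5 FPKM and Apoa1, an apolipoprotein, at 7.43 FPKM. Gkn2, a stomach secretory protein listed at 0 in the other 8 libraries, was at 0.924 FPKM there. The sum of stomach and gut markers did not set it apart, at 55.3 FPKM against 56.9 FPKM in knockout replicate 2 and 63.0 FPKM in heterozygote replicate 2. Results on the Gli genes are also given without wild-type replicate 2, and the part of those liver and stomach markers in them was not tested. By Xist and the Y-linked gene Ddx3y, all 3 knockout libraries were from female embryos, as was replicate 3 of each other group, and the remaining 4 libraries were from males. Sex and genotype can therefore be separated only in part.

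Of the ligands, Dhh was the one with a level above a few fragments. Dhh, the ligand best known from Schwann cells and testis (mm9 chr15:98723458-98728971, minus strand), was at 1.68, 0.583 and 0.912 FPKM in the knockouts, at 1.87, 1.27 and 1.05 FPKM in the heterozygotes and at 1.16, 1.89 and 0.772 FPKM in wild type. The 3 groups overlapped throughout, and each library held 33 to 94 Dhh fragments. Ihh, the ligand of cartilage and gut (chr1:74991892-74998225, minus strand), lay between 0 and 0.0725 FPKM, with 15 fragments in all 9 libraries together and at most 4 in any of them. It was listed at 0 in knockout replicate 3 and wild-type replicate 3, and 3 fragments would have given 0.0512 to 0.0645 FPKM across libraries.

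Shh, the ligand of gut endoderm, floor plate and limb (chr5:28783380-28793641, minus strand), was listed at 0 in 8 of the 9 libraries. The exception was knockout replicate 3, at 0.0391 FPKM from 2 fragments. A count of 0 allows up to 3 fragments, which correspond to 0.0466 to 0.0587 FPKM across libraries; these limits cover counting error only. Most of the Shh locus overlaps 9530036O11Rik, a long intergenic noncoding RNA gene on the opposite strand, and its first 728 bases overlap another, Gm17493. Whether the authors' counting used strand is not given in the sources used here, and the 2 fragments cannot be assigned to Shh with certainty. Of the 10 markers of stomach and gut, whose endoderm is a known Shh source, none was at 0 in every library. Their summed level was 44.6 to 56.9 FPKM in knockouts, 38.7 to 63.0 FPKM in heterozygotes and 42.6 to 55.3 FPKM in wild type. Most of that sum was Tff2, a trefoil peptide of the stomach, at 28.0 to 48.1 FPKM, while Cdx2, the intestinal homeobox gene, was at 0.2505 FPKM or less.

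On the receiving side, transcripts of both membrane components were present in every library. Smo, the membrane protein that relays the signal (chr6:29685497-29711366, plus strand), was at 43.4, 39.4 and 42.6 FPKM in the knockouts, at 46.7, 38.4 and 44.7 FPKM in the heterozygotes and at 44.5, 43.9 and 43.8 FPKM in wild type. Within its locus lies the pseudogene Gm13717, 365 bases long and on the same strand, whose reads may be shared with it. The level of Smo ranked between the 89.2 and 90.8 percentile of all listed genes. Ptch1, the ligand receptor and itself a target (chr13:63612841-63666828, minus strand), was at 3.37, 3.13 and 2.72 FPKM in the knockouts, at 3.37, 3.01 and 2.67 FPKM in the heterozygotes and at 3.71, 3.27 and 3.07 FPKM in wild type. Ptch1 sat near the middle of the ranking, at the 51.7 to 54.7 percentile. Both genes varied little between libraries: over all 9, Smo averaged 43.0 ± 2.62 FPKM and Ptch1 3.15 ± 0.329 FPKM (SD, n = 9).

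The Gli factors were far lower than Smo and more variable. Gli1, the activator whose transcript is the usual readout of the pathway (chr10:126766938-126778635, minus strand), was at 3.69, 1.66 and 2.59 FPKM in the knockouts, at 2.74, 1.83 and 3.21 FPKM in the heterozygotes and at 3.72, 4.58 and 2.91 FPKM in wild type. Its highest library was wild-type replicate 2 and its lowest knockout replicate 2, yet the groups overlapped, because knockout replicate 1 lay within the wild-type range. The last 62 bases of Gli1 overlap Arhgap9 on the opposite strand, where reads of both genes cannot be told apart without strand.

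Gli2, the main activator of the primary response (chr1:120730638-120950196, minus strand), was at 2.18, 1.48 and 1.48 FPKM in the knockouts, at 1.80, 1.46 and 1.78 FPKM in the heterozygotes and at 2.08, 2.34 and 1.72 FPKM in wild type. Gli3, which acts mainly as a repressor when no ligand is present (chr13:15555556-15821858, plus strand), was at 1.89, 1.35 and 1.47 FPKM in the knockouts, at 1.97, 1.80 and 1.78 FPKM in the heterozygotes and at 2.33, 2.87 and 1.62 FPKM in wild type. For both genes wild-type replicate 2 was the highest library and the groups overlapped.

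Hhip was the member with the opposite order of genotypes. Hhip, a membrane-anchored protein that binds and sequesters ligand and is induced by the pathway (chr8:82489750-82581907, minus strand), was at 1.38, 1.89 and 1.74 FPKM in the knockouts, at 1.46, 0.964 and 1.24 FPKM in the heterozygotes and at 1.23, 0.972 and 1.33 FPKM in wild type. Every knockout library lay above every wild-type library, by a narrow margin between knockout replicate 1 and wild-type replicate 3.

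Gli factors act through a short DNA motif, and the promoters of the factors Gli2 and Gli3 and of the targets Ptch1 and Hhip are shown to let it be looked for. The sequences are the 250 bases before the start of the gene from RefSeq (GRCm38.p6, 5′ to 3′ on the gene's strand), which held windows for 7 of the 9 members: Gli2 at chr1:119053620-119053869 (minus strand), Gli3 at chr13:15463473-15463722 (plus strand), Ptch1 at chr13:63565736-63565985 (minus strand) and Hhip at chr8:80058009-80058258 (minus strand). Capitals mark GGGTGGT, the inner letters of the Gli binding motif.
Gli2: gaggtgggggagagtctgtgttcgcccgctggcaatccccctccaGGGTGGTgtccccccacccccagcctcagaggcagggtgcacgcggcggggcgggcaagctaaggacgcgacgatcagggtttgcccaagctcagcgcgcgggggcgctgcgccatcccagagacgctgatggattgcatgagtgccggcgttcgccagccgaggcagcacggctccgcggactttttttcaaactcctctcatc
Gli3: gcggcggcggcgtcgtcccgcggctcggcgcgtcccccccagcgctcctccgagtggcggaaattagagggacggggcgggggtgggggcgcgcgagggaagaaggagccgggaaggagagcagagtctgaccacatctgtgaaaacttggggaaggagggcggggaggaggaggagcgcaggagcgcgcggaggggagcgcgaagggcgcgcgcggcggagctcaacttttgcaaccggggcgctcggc
Ptch1: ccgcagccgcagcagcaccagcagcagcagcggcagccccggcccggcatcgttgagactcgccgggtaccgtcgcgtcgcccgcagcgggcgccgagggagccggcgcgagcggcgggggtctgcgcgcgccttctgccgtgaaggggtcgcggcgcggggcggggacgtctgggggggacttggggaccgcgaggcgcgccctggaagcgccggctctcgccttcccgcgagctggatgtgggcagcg
Hhip: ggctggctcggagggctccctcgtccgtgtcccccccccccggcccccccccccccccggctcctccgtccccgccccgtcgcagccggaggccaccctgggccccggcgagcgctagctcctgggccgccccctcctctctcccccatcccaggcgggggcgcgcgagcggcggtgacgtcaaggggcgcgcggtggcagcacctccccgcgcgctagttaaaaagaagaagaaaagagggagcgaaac
The full motif TGGGTGGTC, searched on both strands, stood in 83 of 32851 RefSeq windows that reach from 250 bases before to 50 bases after a start (0.253%), and in 0 of the 7 member windows. The shorter GGGTGGT, which lies inside the full motif, stood in 1514 windows (4.61%), and of the 7 members in that of Gli2 alone, beginning at position -205 from the start. A match is a run of letters in this window and no measurement of binding.

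**Figure D1:**
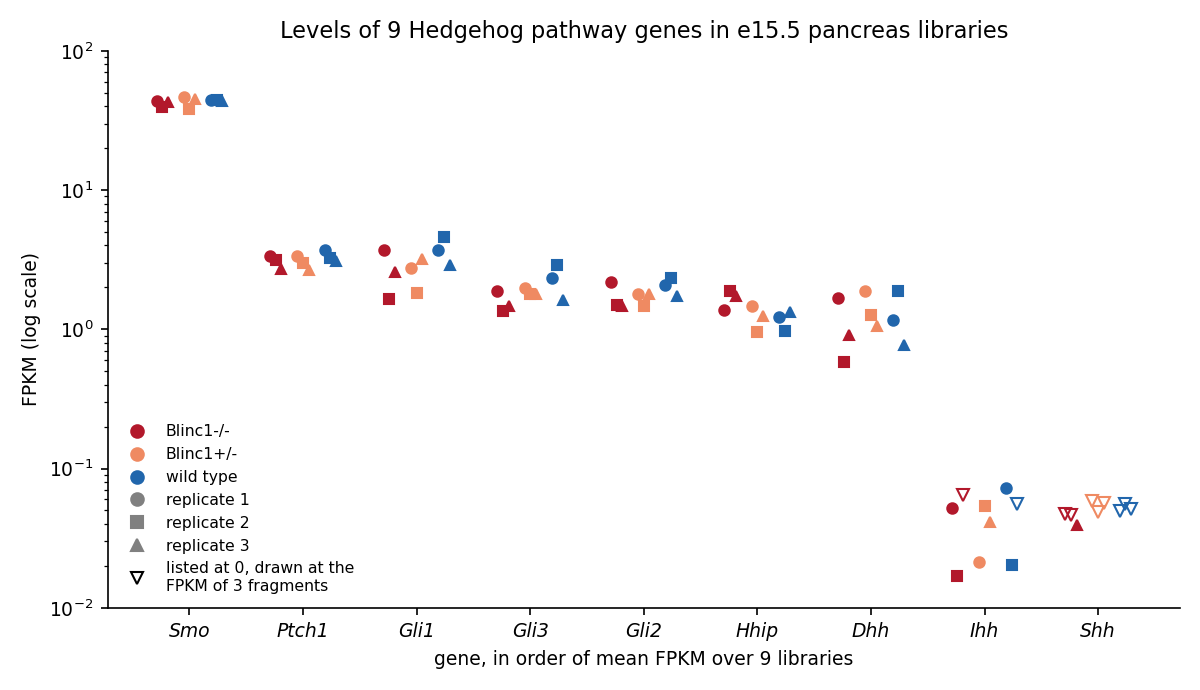
FPKM of the 9 genes on a log axis, 1 point per library, coloured by genotype and shaped by replicate number; open triangles stand for libraries listed at 0 and are drawn at the FPKM of 3 fragments. Smo stood at 38.4 to 46.7 FPKM, 6 genes lay between 0.583 and 4.58 FPKM, and Ihh and Shh were at the detection limit.

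Ranked by mean FPKM over the 9 libraries, the order was Smo (43.0), Ptch1 (3.15), Gli1 (2.99), Gli3 (1.90), Gli2 (1.82), Hhip (1.36), Dhh (1.24), Ihh (0.0310) and Shh (0.00434). Smo exceeded Ptch1 in 9 of 9 libraries, by 13.7 times on the means, and Dhh exceeded Ihh in 9 of 9, by 40.2 times. Gli1 also exceeded Gli3 in 9 of 9 libraries, while Gli2 exceeded Hhip in 7. The neighbours Ptch1 and Gli1, Gli3 and Gli2, and Hhip and Dhh changed places between libraries (the first of each pair was higher in 5, 4 and 5 of 9 libraries) and did not differ beyond their spread.

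Set against the 3 ligands together, Gli1 and Ptch1 were higher in every library, and Hhip was higher in some. The summed FPKM of the 3 ligands was 1.73, 0.600 and 0.951 in the knockouts, 1.89, 1.32 and 1.10 in the heterozygotes and 1.23, 1.91 and 0.772 in wild type, of which Dhh made up 94.1% to 100%. Gli1 was 2.54 ± 0.359 times the ligand sum in knockouts, 1.92 ± 0.873 times in heterozygotes and 3.06 ± 0.688 times in wild type (SD, n = 3 each). For Ptch1 the ratio was 3.34 ± 1.69 in knockouts, 2.16 ± 0.340 in heterozygotes and 2.89 ± 1.14 in wild type. Hhip was at 1.93 ± 1.18 times the ligand sum in knockouts, 0.878 ± 0.220 times in heterozygotes and 1.07 ± 0.609 times in wild type. Each ratio overlapped between genotypes, and in single libraries Gli1 ranged from 1.39 to 3.77 times the ligand sum. In RNA of whole tissue, fewer cells of a type and less RNA per cell cannot be told apart, and the cells that made the ligand need not be those that answered it.

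Across the 9 libraries no ligand tracked a target past the threshold. For Dhh and Gli1, Pearson's r of log2(FPKM + 1) was 0.59 (exact permutation p = 0.0964, Benjamini-Hochberg adjusted p = 0.461 over the 9 ligand and target pairs) and Spearman's rho was 0.55 (exact permutation p = 0.133). Without knockout replicate 2 and wild-type replicate 2, the libraries farthest from the Dhh median, r was 0.10. Dhh and Ptch1 had r = 0.42 (exact permutation p = 0.256, adjusted p = 0.461; rho = 0.47, exact permutation p = 0.212), and 0.52 without the same libraries. Dhh and Hhip had r = -0.54 (exact permutation p = 0.133, adjusted p = 0.461; rho = -0.48, exact permutation p = 0.194), and -0.05 without them. Pairs with Shh or Ihh rest on 2 and 15 fragments, and their adjusted p-values lay between 0.461 and 0.667. Values within a genotype could not be given, since each has 3 libraries. After subtraction of genotype means, chosen after seeing the data, Dhh and Gli1 had r = 0.73 (permutation p = 0.0274, adjusted p = 0.246). That permutation moved the 9 centred values freely across genotypes. Its p-values are therefore not exact and may be too small.

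The comparison of knockout with wild type asks what loss of Blinc1 does to these transcripts. In limma, a linear model fitted to log2(FPKM + 1) of all tested genes with p-values adjusted over all 13306 by Benjamini-Hochberg, 0 of the 7 members passed the adjusted threshold of 0.05, as did 0% of all tested genes; voom on implied fragment numbers also called 0 genes. At an unadjusted p under 0.05 stood 2 of the 7, Gli3 and Hhip, against 8.39% of all tested genes (1117). Gli3 averaged 1.57 ± 0.288 FPKM in knockouts and 2.28 ± 0.628 FPKM in wild type (log2 difference -0.34, SE 0.15, limma adjusted p = 0.576). Hhip averaged 1.67 ± 0.263 FPKM in knockouts and 1.18 ± 0.183 FPKM in wild type (log2 difference 0.29, SE 0.13, limma adjusted p = 0.576), a ratio of means of 1.42. Adding a pseudocount of 1 understates the differences of genes at such low levels.

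Gli1 had the largest difference in size of the 7, at 2.65 ± 1.01 FPKM in knockouts and 3.74 ± 0.834 FPKM in wild type (log2 difference -0.40, SE 0.23, limma adjusted p = 0.588). Its 95% interval ran from -0.91 to 0.11, so neither equal levels nor a fall by 0.91 on the log2 scale lay outside it. Gli2 averaged 1.71 ± 0.403 FPKM in knockouts and 2.05 ± 0.309 FPKM in wild type (-0.17, SE 0.13, adjusted p = 0.664). The receptor side differed less. Ptch1 averaged 3.07 ± 0.327 FPKM in knockouts and 3.35 ± 0.327 FPKM in wild type (-0.09, SE 0.11, adjusted p = 0.754), and Smo averaged 41.8 ± 2.12 FPKM in knockouts and 44.1 ± 0.396 FPKM in wild type (-0.08, SE 0.07, adjusted p = 0.721). Dhh averaged 1.06 ± 0.562 FPKM in knockouts and 1.28 ± 0.569 FPKM in wild type (-0.15, SE 0.24, adjusted p = 0.833).

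The mean was lower in knockouts for 6 of the 7 members, with a median log2 difference of -0.15, against 58.5% of all tested genes and a median of -0.03. Groups did not overlap for Smo, lower in knockouts like 6.64% of all tested genes, and for Hhip, higher in knockouts like 4.55%. Without knockout replicate 1 and heterozygote replicate 1, the log2 difference was -0.60 for Gli1 (adjusted p = 0.195), -0.43 for Gli3 (adjusted p = 0.213) and 0.38 for Hhip (adjusted p = 0.184), and 0 members passed; 3 of the 7 stood at an unadjusted p under 0.05, against 19.8% of all tested genes. Without knockout replicate 2 it was -0.19 for Gli1 (adjusted p = 0.973), -0.28 for Gli3 and 0.24 for Hhip. Without wild-type replicate 2 it was -0.27 for Gli1 (adjusted p = 0.906), -0.21 for Gli3 (adjusted p = 0.906) and 0.23 for Hhip. In neither fit did any of the 7 stand at an unadjusted p under 0.05 (0 of 7), against 3% and 3.13% of all tested genes. With sex as a covariate it was -0.17 for Gli3 (adjusted p = 0.879) and 0.24 for Hhip (adjusted p = 0.872), and the differences of Dhh and Ptch1 turned to 0.12 and 0.02. Among female libraries alone, Hhip was at 1.38 to 1.89 FPKM in the 3 knockouts against 1.33 FPKM in wild-type replicate 3, and Gli3 at 1.35 to 1.89 FPKM against 1.62 FPKM; with 1 female wild-type library there is no test. Dhh also changed sign without knockout replicate 2 (0.02) or wild-type replicate 2 (0.04).

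**Figure D2:**
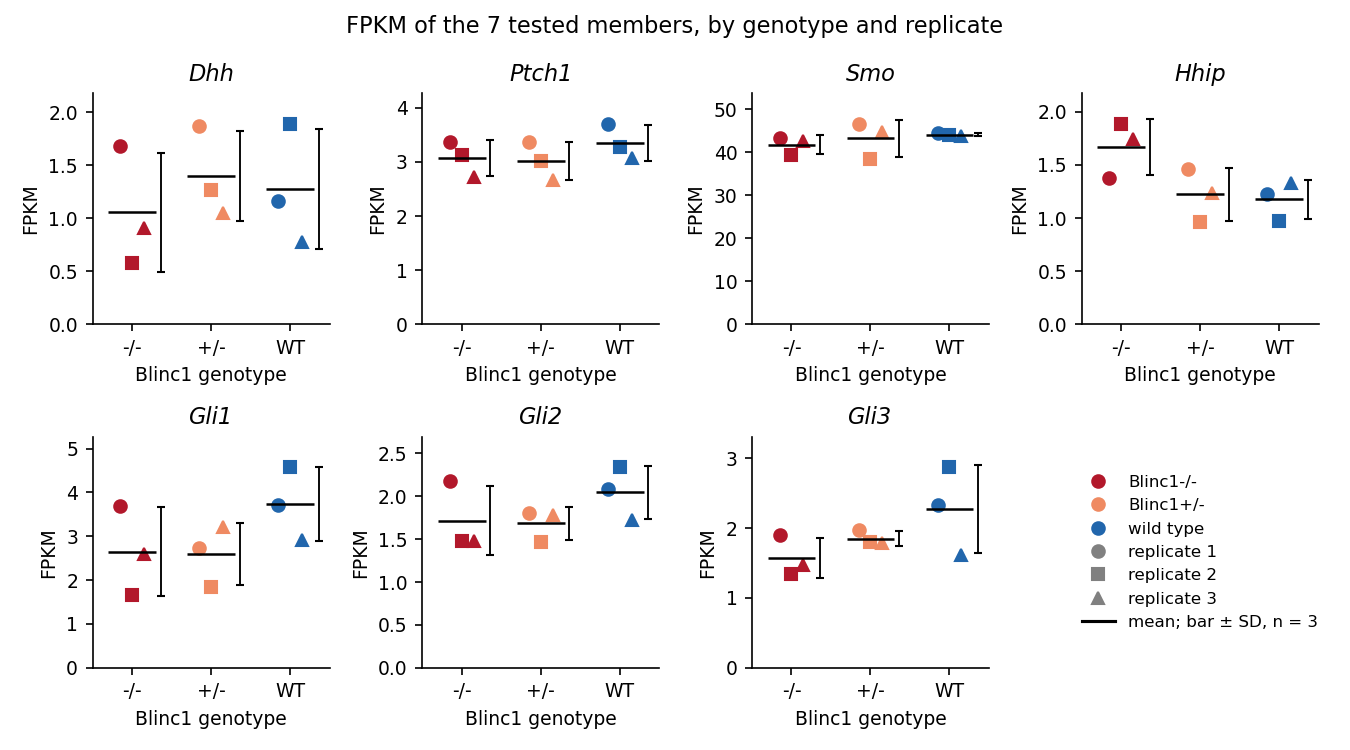
FPKM of the 7 tested members in Blinc1-/-, Blinc1+/- and wild-type pancreas, 1 point per library, with the group mean as a line and the SD as a bar (n = 3). Groups overlap in most panels; the 3 knockout libraries lie above the wild type for Hhip, and wild-type replicate 2 is the highest point for Gli1, Gli2 and Gli3.

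Heterozygotes were compared with wild type in the same fit. In limma 0 of the 7 members and 0% of all tested genes passed the adjusted threshold, and 0 of the 7 stood at an unadjusted p under 0.05, against 3.92% of all tested genes (522). Gli1 had the largest difference, at 2.60 ± 0.701 FPKM in heterozygotes and 3.74 ± 0.834 FPKM in wild type (log2 difference -0.40, SE 0.23, limma adjusted p = 0.945). Gli2 and Gli3 each differed by -0.18, Ptch1 by -0.12, Smo by -0.03, Hhip by 0.03 and Dhh by 0.09, with adjusted p-values of 0.945 to 0.987. Hhip averaged 1.22 ± 0.251 FPKM in heterozygotes, beside 1.18 ± 0.183 FPKM in wild type. Without heterozygote replicate 1 the mean was lower in heterozygotes for 7 of 7 members, against 61.8% of all tested genes. With that library it was lower for 5 of 7, against 57.1%. Without it Dhh and Hhip turned to -0.05 each, Gli1 was at -0.44 and Ptch1 at -0.18, with limma adjusted p-values of 0.981 to 0.994. Knockout replicate 1 does not enter these means, and without it as well the adjusted p-values were 0.916 to 0.986.

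Between knockouts and heterozygotes, again 0 of the 7 members and 0% of all tested genes passed in limma, and 0 of the 7 stood at an unadjusted p under 0.05, against 2.22% of all tested genes (296). Hhip averaged 1.67 ± 0.263 FPKM in knockouts and 1.22 ± 0.251 FPKM in heterozygotes (log2 difference 0.27, SE 0.13, limma adjusted p = 0.99977). Gli1 averaged 2.65 ± 1.01 FPKM in knockouts and 2.60 ± 0.701 FPKM in heterozygotes, a log2 difference of 0.00 (SE 0.23, 95% interval -0.51 to 0.51). The remaining members lay between -0.24 for Dhh and 0.02 for Ptch1. The log2 difference without knockout replicate 1 and heterozygote replicate 1 was 0.43 for Hhip (limma adjusted p = 0.708), -0.31 for Dhh, -0.21 for Gli3 and -0.16 for Gli1. Hhip then stood at an unadjusted p under 0.05, 1 of the 7 members, against 6.48% of all tested genes. The 3 comparisons share libraries, so their values are not independent of each other.

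**Figure D3:**
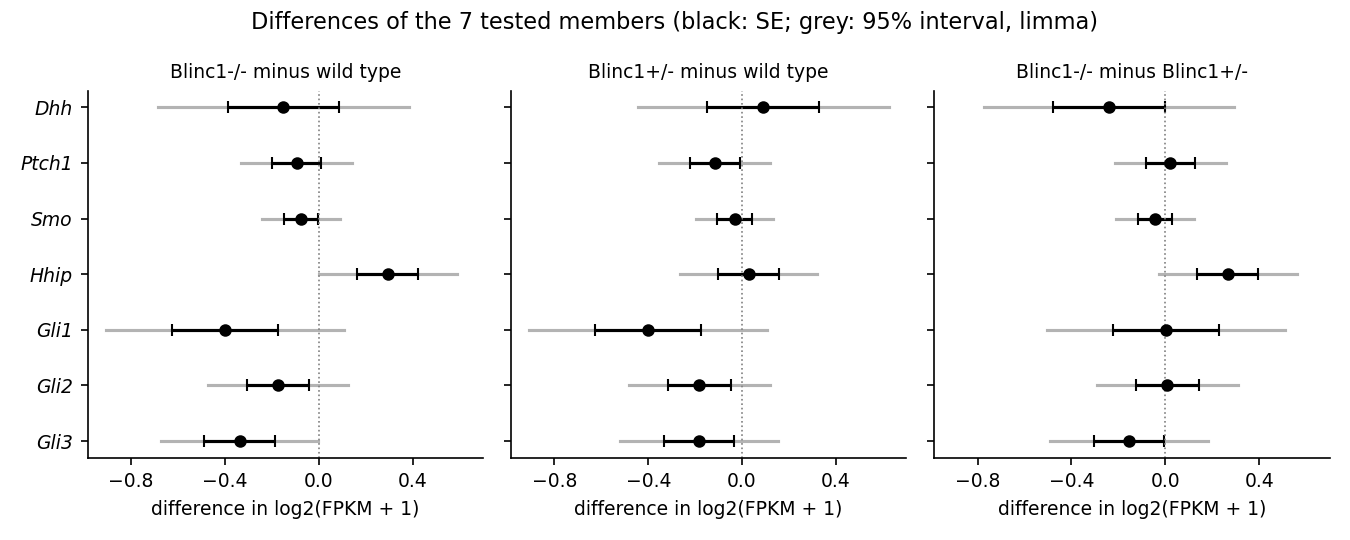
Differences in log2(FPKM + 1) of the 7 tested members for the 3 genotype comparisons, with the SE in black and the 95% interval in grey. In knockout minus wild type the values run from -0.40 for Gli1 to 0.29 for Hhip, and the grey intervals cross 0 except those of Gli3 and Hhip in that comparison, which end beside it.

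A wider list of 39 pathway genes placed the members among their partners; it was drawn up with earlier results of these data known. Of its 32 tested genes, 0 passed the adjusted threshold in limma for knockout against wild type. The mean was lower in knockouts for 31 of 32, with a median log2 difference of -0.17, against 58.5% of all tested genes and a median of -0.03. At an unadjusted p under 0.05 stood 5 of 32, all lower in knockouts, against 8.39% of all tested genes. For heterozygotes against wild type the mean was lower for 28 of 32, against 57.1% of all tested genes, and 2 stood at an unadjusted p under 0.05, Scube3 and Cdon, against 3.92%. Without heterozygote replicate 1, 28 of 32 were lower and 0 stood under that threshold, against 61.8% and 3.04% of all tested genes. For knockouts against heterozygotes the mean was lower for 25 of 32, against 55.3% of all tested genes, and 0 stood at an unadjusted p under 0.05, against 2.22%.

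Among co-receptors that present ligand to Ptch1, Boc averaged 6.18 ± 1.10 FPKM in knockouts and 8.24 ± 0.465 FPKM in wild type (log2 difference -0.37, SE 0.11, limma adjusted p = 0.576). Its 3 knockout libraries, at 7.43, 5.34 and 5.76 FPKM, lay below the wild types at 8.17, 8.73 and 7.81 FPKM, as did those of 6.64% of all tested genes. Cdon, its close relative, averaged 10.8 ± 1.81 FPKM in knockouts and 13.9 ± 1.36 FPKM in wild type (-0.35, SE 0.11, adjusted p = 0.576). Gas1, the GPI-anchored co-receptor, was the most abundant of the 3, at 43.8 ± 2.62 FPKM in knockouts and 46.8 ± 5.07 FPKM in wild type (-0.09, adjusted p = 0.789).

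Of the 6 genes for making and releasing ligand, 4 were tested. Hhat, which adds a fatty acid to the ligands, was at 4.15 ± 0.748 FPKM in knockouts and 4.04 ± 0.112 FPKM in wild type and was the 1 gene of the list with a higher mean in knockouts. Scube3, of a secreted family that helps release ligand, was at 1.57 ± 0.430 FPKM in knockouts and 2.02 ± 0.219 FPKM in wild type (-0.24, adjusted p = 0.588). Disp2, a relative of the ligand exporter Disp1, was at 5.53, 1.93 and 1.84 FPKM in the knockouts and at 3.13, 4.39 and 4.39 FPKM in wild type (-0.38, adjusted p = 0.655). Without knockout replicate 1, where Disp2 was highest of all libraries, its difference was -0.77 (adjusted p = 0.0807). It was -0.19 (adjusted p = 0.973) without knockout replicate 2 and -0.32 (adjusted p = 0.911) without wild-type replicate 2. Disp1 was listed at 0 in every library, which in a file without counts can be a failed estimate.

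All 15 genes that relay the signal or control the Gli proteins were tested. All 15 means were lower in knockouts, against 58.5% of all tested genes, by -0.35 to -0.0007 with a median of -0.10. Under the unadjusted threshold stood 1 of the 15, against 8.39% of all tested genes. That gene was Evc, a protein of the cilium base that acts with Smo, at 4.89 ± 1.23 FPKM in knockouts and 6.42 ± 0.485 FPKM in wild type (-0.35, SE 0.14, adjusted p = 0.576). Kif7, a kinesin at the cilium tip that restrains and organises Gli proteins, was at 1.94 ± 0.655 FPKM in knockouts and 2.52 ± 0.387 FPKM in wild type (-0.28, adjusted p = 0.604). The abundant kinases that phosphorylate Gli proteins differed little. Csnk1a1 was at 124 ± 5.38 FPKM in knockouts and 125 ± 4.38 FPKM in wild type (-0.02), and Prkaca at 68.5 ± 5.60 FPKM in knockouts and 71.8 ± 1.73 FPKM in wild type (-0.07).

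The cilium genes were lower on average in knockouts for 5 of 5 tested, against 58.5% of all tested genes. At an unadjusted p under 0.05 stood 2 of the 5, against 8.39%. Tulp3, which carries membrane proteins into the cilium, was at 12.1 ± 1.45 FPKM in knockouts and 14.4 ± 0.328 FPKM in wild type (-0.23, SE 0.09, adjusted p = 0.576), without overlap. Of the 32 tested genes of the list 2, Boc and Tulp3, were lower in knockouts without overlap, against 6.64% of all tested genes. Ift88, a part of the intraflagellar transport complex, was at 5.94 ± 0.655 FPKM in knockouts and 6.86 ± 0.230 FPKM in wild type (-0.18, adjusted p = 0.576). Kif3a, a motor subunit of the same transport, was at 7.47 ± 1.32 FPKM in knockouts and 8.43 ± 0.635 FPKM in wild type (-0.16, adjusted p = 0.643).

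Further genes known as Gli targets in other tissues also had lower means in knockouts, 5 of 5 tested, against 58.5% of all tested genes. Under the unadjusted threshold stood 0 of the 5, against 8.39%. Ccnd1, cyclin D1, was at 66.8, 42.0 and 33.3 FPKM in the knockouts and at 52.4, 71.1 and 67.3 FPKM in wild type (-0.47, SE 0.21, adjusted p = 0.576). Without knockout replicate 1 its difference was -0.74 (adjusted p = 0.0807), without knockout replicate 2 it was -0.41, and without wild-type replicate 2 it was -0.38. Bmp4, a signal of gut and pancreatic mesenchyme, was at 2.79 ± 0.679 FPKM in knockouts and 3.89 ± 0.942 FPKM in wild type (-0.37, adjusted p = 0.576). Mycn, a growth regulator, was at 4.32 ± 1.12 FPKM in knockouts and 5.34 ± 0.566 FPKM in wild type (-0.27, adjusted p = 0.588). Foxf2 and Foxl1, forkhead factors of gut mesenchyme, stayed below 1 FPKM and were left out of the main test. Foxf2 was at 0.105 ± 0.0493 FPKM in knockouts and 0.277 ± 0.0540 FPKM in wild type, from at most 17 fragments a library. Foxl1 was at 0.0595 ± 0.0496 and 0.165 ± 0.0154 FPKM, from at most 11. Both were lower in knockouts without overlap, like 6.64% of all tested genes. In limma without the filter, their adjusted p was 0.657 each.

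**Figure D4:**
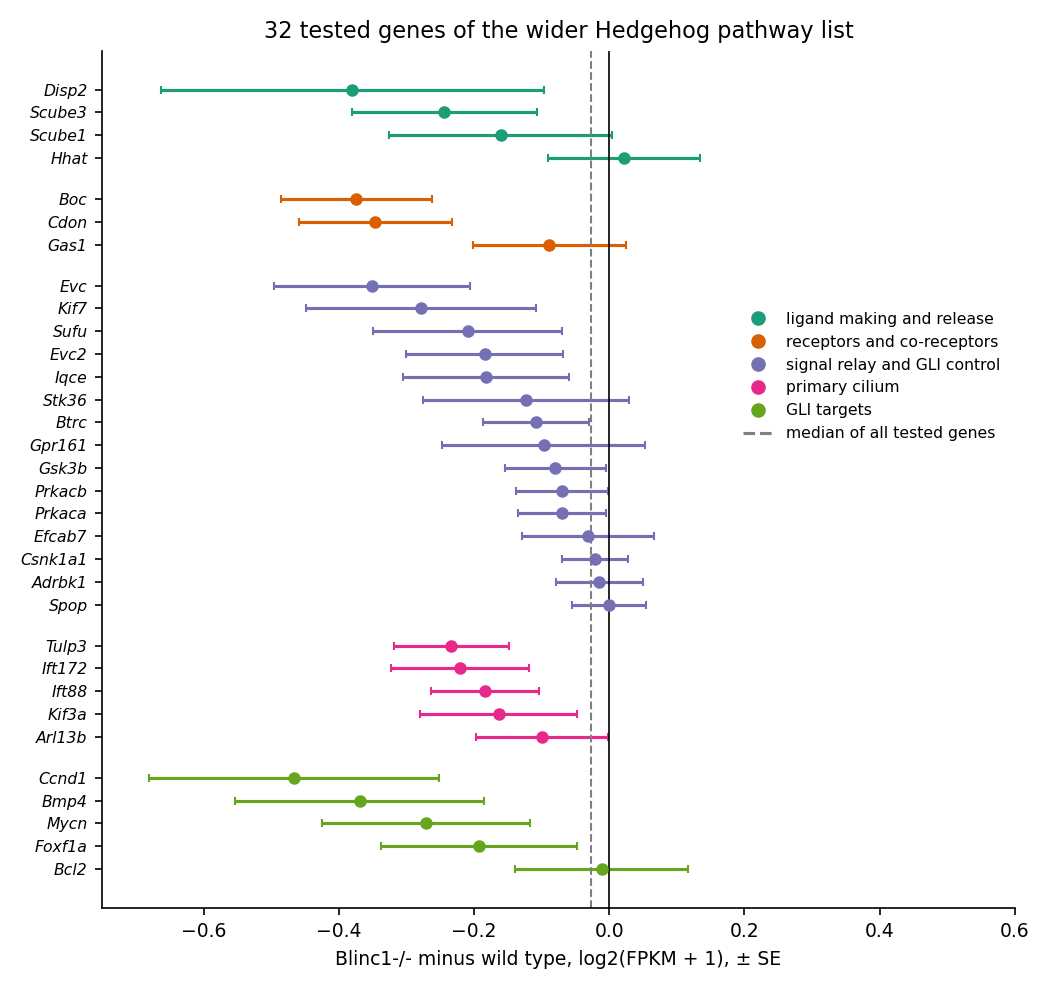
Knockout minus wild type in log2(FPKM + 1), with the SE, for the 32 tested genes of the wider list by role; the dashed line is the median of all 13306 tested genes, -0.03. Points lie left of 0 for 31 of 32 genes, from -0.47 for Ccnd1 upward, and Hhat is the exception.

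Without knockout replicate 1 and heterozygote replicate 1, 32 of 32 means were lower in knockouts and 15 stood at an unadjusted p under 0.05, with 0 past the adjusted threshold. In that fit 61.5% of all tested genes were lower in knockouts and 19.8% stood at an unadjusted p under 0.05. Leaving out knockout replicate 2, 27 of 32 were lower with a median of -0.06 and 1 stood under that threshold, against 50.9% and 3% of all tested genes. Between knockouts and heterozygotes, 27 of 32 were lower without knockout replicate 1 and heterozygote replicate 1, and 6 stood at an unadjusted p under 0.05, against 56.8% and 6.48% of all tested genes. With knockout replicate 1 alone left out these were 30 and 9 of 32, against 60.2% and 8.94%, and without knockout replicate 2 the mean was lower for 15 of 32, against 43.7%. With sex as a covariate, 26 of 32 were lower in knockouts than in wild type and 2 stood at an unadjusted p under 0.05, against 56.8% and 4.19% of all tested genes.

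The 3 Gli genes varied together across libraries. Among 18 pairs of members, chosen after their values had been seen, Gli1 and Gli2 had r = 0.92 (exact permutation p = 0.000394, adjusted p = 0.00709) and rho = 0.88 (exact permutation p = 0.00307). Without knockout replicate 2 and wild-type replicate 2, their r was 0.89. Without wild-type replicate 2 alone it was 0.89 with an adjusted p of 0.0848. Gli2 and Gli3 had r = 0.84 (exact permutation p = 0.00268, adjusted p = 0.0241; rho = 0.77, exact permutation p = 0.0214), and 0.83 without wild-type replicate 2 and knockout replicate 1. That pair passed under 8 of 12 other settings, among them subtraction of genotype means, whose permutation is not exact. It did not pass without knockout replicate 2, knockout replicate 3, heterozygote replicate 3 or wild-type replicate 2, where r was 0.81, 0.82, 0.84 and 0.75. For Gli1 and Gli3 r was 0.79 (exact permutation p = 0.0116, adjusted p = 0.0662; rho = 0.77, exact permutation p = 0.0214), but 0.46 without the 2 outermost libraries. Leaving these out also narrows the range of Gli1, so how far the relation rests on them cannot be told. Under 12 other settings r was 0.67 to 0.87, and 1 of them passed the adjusted threshold. Dhh and Gli3 had r = 0.76 (exact permutation p = 0.0147, adjusted p = 0.0662; rho = 0.88, exact permutation p = 0.00307), and 0.51 without knockout replicate 2 and wild-type replicate 2. After subtraction of genotype means that pair had r = 0.90 (adjusted p = 0.00422, from a permutation that is not exact). Gli1 and Hhip, both targets, had r = -0.44 (exact permutation p = 0.237, adjusted p = 0.305; rho = -0.48, exact permutation p = 0.194), and Ptch1 and Gli1 r = 0.35 (exact permutation p = 0.360, adjusted p = 0.432; rho = 0.42, exact permutation p = 0.270). Without the 2 outermost libraries of each pair these were 0.29 and 0.42.

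Pancreatic mesenchyme is a known site of Hedgehog response, and its markers moved with the Gli genes. The summed level of 12 mesenchyme markers was 2124, 1474 and 1641 FPKM in the knockouts, 1943, 1665 and 1977 FPKM in the heterozygotes and 2180, 2502 and 1851 FPKM in wild type. The markers did not count equally in that sum. Over the 9 libraries Col3a1 and Vim averaged 450 and 442 FPKM, and the mesenchyme factor Tcf21 averaged 18.95 FPKM. The libraries with the highest and the lowest sum were those of Gli1. The mean was lower in knockouts than in wild type for 12 of 12 markers, 3 of them at an unadjusted p under 0.05 and 0 past the adjusted threshold. Of all tested genes, 58.5% were lower in knockouts and 8.39% stood at an unadjusted p under 0.05. Other marker lists went both ways. For endothelium 5 of 5 means were lower in knockouts, with 3 at an unadjusted p under 0.05. Its sums were 117 to 150 FPKM in knockouts, 139 to 147 FPKM in heterozygotes and 144 to 171 FPKM in wild type. For endocrine cells 9 of 11 were lower, with 2 at an unadjusted p under 0.05 and a median of -0.45, and for liver 3 of 3, with 0. Schwann cell markers were lower for 5 of 6 and the tested spleen marker for 1 of 1. In contrast, 2 of 8 were lower for duct and trunk (median 0.07) and 1 of 3 tested for stomach and gut (median 0.13). For acinar cells it was 0 of 7. None of the 12 mesenchyme markers was at 0 in all libraries. Col3a1, a fibrillar collagen, was at 411 ± 63.2 FPKM in knockouts and 506 ± 68.2 FPKM in wild type (log2 difference -0.30, limma adjusted p = 0.576), and Vim, the mesenchymal intermediate filament, at 414 ± 78.5 FPKM in knockouts and 482 ± 38.1 FPKM in wild type (-0.23, adjusted p = 0.583).

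Each member was set against the summed mesenchyme, acinar and Schwann cell markers, 21 relations chosen after the values had been seen. With the mesenchyme sum, Gli1 had r = 0.95 (exact permutation p = 7.99e-05, adjusted p = 0.00145; rho = 0.97, exact permutation p = 0.000165), and 0.88 without the 2 outermost libraries, knockout replicate 2 and wild-type replicate 2. Gli2 had r = 0.96 (exact permutation p = 0.000138, adjusted p = 0.00145; rho = 0.90, exact permutation p = 0.00203), and 0.97 without them. Gli3 had r = 0.92 (exact permutation p = 0.000485, adjusted p = 0.00339; rho = 0.88, exact permutation p = 0.00307), and 0.78 without them. After subtraction of genotype means the r of Gli1, Gli2 and Gli3 was 0.96, 0.97 and 0.87. Without wild-type replicate 2 alone it was 0.93, 0.93 and 0.86 (adjusted p = 0.00764, 0.00764 and 0.025). The part of the mesenchyme level in the genotype differences of the Gli genes was not tested.

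The other members followed the mesenchyme sum less closely. Ptch1 had r = 0.47 with it (exact permutation p = 0.199, adjusted p = 0.225; rho = 0.50, exact permutation p = 0.178), and 0.67 without the 2 outermost libraries. Smo had r = 0.65 (exact permutation p = 0.0571, adjusted p = 0.109; rho = 0.62, exact permutation p = 0.0857), and 0.61 without them. Dhh had r = 0.73 (exact permutation p = 0.0256, adjusted p = 0.0768; rho = 0.70, exact permutation p = 0.0433), but 0.39 without them. After subtraction of genotype means Dhh had r = 0.86 (adjusted p = 0.0157, from a permutation that is not exact), and without heterozygote replicate 1 it had r = 0.81 (adjusted p = 0.0404). Hhip had r = -0.62 (exact permutation p = 0.0732, adjusted p = 0.110; rho = -0.57, exact permutation p = 0.121), and -0.08 without them. Without heterozygote replicate 2 alone, Hhip had r = -0.94 (adjusted p = 0.00612).

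**Figure D5:**
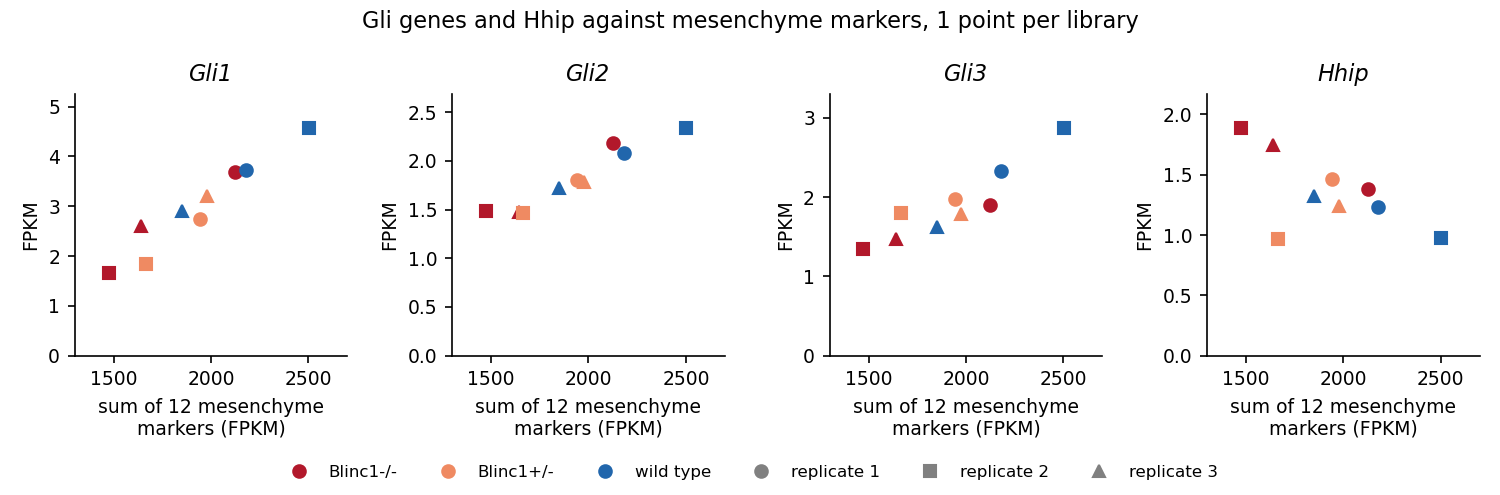
FPKM of Gli1, Gli2, Gli3 and Hhip against the summed FPKM of 12 mesenchyme markers, 1 point per library, coloured by genotype and shaped by replicate number. The Gli genes climb with the marker sum from 1474 to 2502 FPKM (r = 0.95, 0.96 and 0.92, n = 9), and Hhip has r = -0.62.

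The acinar markers ran the other way. Their summed level, which includes the digestive enzyme gene Cpa1, was 14070 to 20770 FPKM in knockouts, 16450 to 18200 FPKM in heterozygotes and 14830 to 15390 FPKM in wild type. The mean was higher in knockouts than in wild type for 7 of 7 acinar markers, against 5521 of all 13306 tested genes. None of the acinar markers was at 0 in all libraries. Against that sum Gli1 had r = -0.89 (exact permutation p = 0.00105, adjusted p = 0.00442; rho = -0.88, exact permutation p = 0.00307), and -0.86 without knockout replicates 1 and 2. Gli2 had r = -0.83 (exact permutation p = 0.00488, adjusted p = 0.0171; rho = -0.82, exact permutation p = 0.0108), and -0.84 without them, while Gli3 had r = -0.63 (adjusted p = 0.110, exact permutation p = 0.0696; rho = -0.58, exact permutation p = 0.108), and -0.59 without them. FPKM values of a library share 1 total, and the part of this in these relations was not tested. Without knockout replicate 1, the Gli2 relation was -0.79 and its adjusted p 0.0648.

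Schwann cells are a known Dhh source, and their markers were present at low levels. Sox10, the neural crest factor, was at 7.67, 3.89 and 5.60 FPKM in the knockouts, at 7.11, 4.11 and 6.98 FPKM in the heterozygotes and at 6.33, 7.65 and 6.17 FPKM in wild type. The summed level of the 6 markers was 22.0 to 31.7 FPKM in knockouts, 21.3 to 33.6 FPKM in heterozygotes and 26.0 to 29.5 FPKM in wild type, and none was at 0 in all libraries. Dhh had r = 0.64 with that sum (exact permutation p = 0.0680, adjusted p = 0.110; rho = 0.53, exact permutation p = 0.147), and 0.72 without the 2 outermost libraries. Smo had r = 0.88 (exact permutation p = 0.00103, adjusted p = 0.00442; rho = 0.82, exact permutation p = 0.0108), and 0.75 without them. Gli1 had r = 0.67 (exact permutation p = 0.0471, adjusted p = 0.109; rho = 0.62, exact permutation p = 0.0857), and 0.79 without them. Gli2 had r = 0.70 (exact permutation p = 0.0393, adjusted p = 0.103; rho = 0.77, exact permutation p = 0.0214), and 0.80 without them. The Gli1 relation passed the adjusted threshold under 4 of 12 other settings and that of Gli2 under 3. Among these was subtraction of genotype means, where r was 0.75 (adjusted p = 0.0488) for Gli1 and 0.77 (adjusted p = 0.0411) for Gli2. Both of these adjusted p-values come from a permutation that is not exact, and they may be too small. The remaining 3 members had r of -0.08 to 0.50 with the Schwann sum.

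The genes whose pattern over the 9 libraries was most like each member's were found by Pearson's r over all tested genes, as a description. For Gli1 they were Clec11a (0.99), Sparc (0.98) and P4ha2 (0.98), and for Gli2 Adamtsl4 (0.99), Lum (0.98) and Wdfy1 (0.98). For Gli3 they were Arap3 (0.98), Sh3pxd2a (0.97) and Flna (0.97). Lum is also 1 of the 12 mesenchyme markers, and Sparc, a matrix protein, and P4ha2, a collagen prolyl hydroxylase, are not on that list. For Dhh they were Hspa12a (0.97), 2310028H24Rik (0.96) and Nup214 (0.95), for Smo Lrsam1 (0.97), Arpc4 (0.96) and Socs3 (0.96), for Ptch1 Ap3d1 (0.93), Zfml (0.93) and Fam76a (0.92), and for Hhip Ndrg1 (0.93), Sars (0.92) and Pop5 (0.91).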

How the data were processed

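RNA-seq of 9 whole-pancreas libraries (3 Blinc1-/-, 3 Blinc1+/- and 3 wild type, grouped by title) was deposited by the authors as FPKM per gene, each with a pair of confidence bounds in FPKM, per the file headers. Per the labels, TopHat 2.0.4 aligned the reads to mm9 (up to 4 mismatches, up to 10 hits a read). The submitters' processing notes also name CASAVA 1.8.2, Cufflinks and DESeq. For annotation and strand the sources used here give nothing.

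The FPKM of the 248 symbols with several loci were summed, and 4 symbols whose estimate failed for excess data were left out. The upper bound was taken as 2 standard errors above the FPKM, which gave implied fragments; 73.5% to 74.4% of genes under 500 fragments came out whole within 0.05, so these served only for floors (3 fragments), depth and 1 alternative. Genes reaching 1 FPKM in at least 3 libraries were tested with limma 3.58.1 (R 4.3.3) on log2(FPKM + 1) with an intensity trend, all 9 libraries in 1 fit, two-sided, with Benjamini-Hochberg adjustment at 0.05. The test was checked on simulated data. An exact permutation test of 3 libraries against 3 cannot go below p = 0.1, so none is given for groups. Correlations used exact two-sided permutation of pairings and Benjamini-Hochberg adjustment within each family of 9, 18 and 21 relations. After subtraction of genotype means the same permutation moved values across genotypes and is not exact.

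The members, lists, marker genes and alternatives were chosen with earlier results of these data known. Named genes were all 9 members; from each role of the wider list the 2 with the smallest unadjusted p for knockout against wild type and the 2 with the highest mean FPKM; from each marker list up to 3 genes of highest mean FPKM; the 3 genes most like each member; and Nkx2-2. Disp1, Foxf2, Foxl1, Cdx2, Gkn2, Tcf21 and the genes of the sex check were named after their values were seen. Positions are 1-based on mm9, and the deposited loci were checked against GENCODE.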

Additional observations from a re-analysis of the deposited data

How the results depend on the processing

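Under 17 other settings (18 for Smo, the member that also passed a filter of 5 FPKM), 0 of the 7 members passed the adjusted threshold in any comparison; the smallest adjusted p was 0.0745, for Gli3 in knockout against wild type with array weights. The signs of Smo, Gli1, Gli2, Gli3 and Hhip for that comparison were the same under every setting run. Over all genes, limma called 0 in each comparison. It called 4, 5 and 5 for knockout against wild type, heterozygote against wild type and knockout against heterozygote without knockout replicate 1 and heterozygote replicate 1, and 5 for knockout against wild type with array weights. Leaving out 1 library gave 0 to 1, 0 to 7 and 0 to 4, highest in the last 2 without knockout replicate 1. Genes at an unadjusted p under 0.05 ranged over all settings from 399 to 3730, 277 to 872 and 185 to 1706. With voom on implied fragments 0 genes passed. With replicate number as a block, 1 gene was called for heterozygote against wild type and 0 in the other comparisons. Same-numbered libraries correlated at -0.19 to 0.29 after subtraction of group means. Differently numbered libraries were not compared, so whether the numbers mark a shared batch was not tested. The cause of these shifts in the number of genes was not tested.

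Gli1 and Hhip ranged from r = -0.92, without heterozygote replicate 2 (adjusted p = 0.0124), to -0.12. Gli1 and Gli2 with the mesenchyme sum stayed at 0.93 or more under 12 settings, and Gli3 at 0.86 or more. Depth limits Shh and Ihh to a few fragments, and no genotype difference could be tested for them.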
